A study of Rattus norvegicus with 9 samples.

Results

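The transcripts described here set the testes of sham-operated rats apart from both groups of rats with a varicocele, whether or not these received a plant polysaccharide. They were chosen from the measured values. Each deposited abundance was taken as log2(value + 0.5), and transcripts with a mean abundance of 0.5 or more over the 9 libraries were kept. For each one a gap was computed between the 3 control libraries and the other 6 libraries, as the lowest value of the higher side minus the highest value of the lower side. The 100 transcripts with the largest gap above 0 are the members, out of 18745 that passed the limit on the mean and 19532 in all. All 100 members passed that limit by definition. The contrast of control with the other 6 libraries, and each varicocele group against control, is therefore a description of what was chosen, with no test on the members.

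The libraries were made from left testes of male Sprague Dawley rats, which the labels put at 6 to 7 weeks of age without saying at which point of the study. Control rats had the operation without ligation and were then fed conventionally for 12 weeks, with no gavage listed. Rats of the varicocele group (VC) had the left renal vein partly ligated, and from 8 weeks after the operation they received about 2 mL of saline by gavage daily for 4 weeks. Rats of the treated group (VC+MOP) had the same ligation and received Morinda officinalis polysaccharide (MOP), a carbohydrate extract of a root used in Chinese medicine, at 300 mg per kg daily by gavage over the same 4 weeks. Each group had 3 libraries. Per the labels, operated rats whose veins did not dilate or whose left kidney shrank were removed, so both varicocele groups hold rats in which the model took. Ligation and gavage both separate the 6 libraries from control and cannot be told apart.

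In a varicocele the veins leading blood away from the testis are widened. Partial ligation of the left renal vein raises the pressure in the left testicular vein, which empties into it, and this is a common way to produce the condition in rats. Warming of the testis, low oxygen and oxidative damage are the disturbances most often discussed for it, and germ cells, the Sertoli cells that nurse them and the Leydig cells that make testosterone are all regarded as exposed. The testis transcribes an unusually large part of the genome and makes many alternative transcripts of its genes, so a transcript can move while the total output of its gene does not. In whole testis, a lower level of a transcript can reflect fewer cells that make it or less of it per cell, which these data cannot tell apart.

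The deposited table names transcripts by Ensembl identifier, and 0 of the 19532 identifiers could be paired with a gene in the tables used here. No gene name, role, position, promoter or protein is therefore given, the tissue label could not be checked against marker genes, and members of coding and noncoding genes are not separated. Following from this, identifiers are printed for 2 members in each direction per comparison, and the other members are called by their rank of gap, with rank 1 the largest. Nothing in the labels states that the 3 libraries of a group stem from 3 rats, so the p-values below refer to variation among libraries, which may be technical. Listed abundances summed to between 478800 and 486011 per library, and between 213 and 258 transcripts were listed at 0 in a library. Sequencing depth is unknown, so no counting interval or detection limit can be given.

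Of the 100 members, 43 were higher in the 6 varicocele libraries than in control and 57 were lower. In all, 427 of the 18745 transcripts did not overlap between control and the other 6 libraries (2.28%). Of these, 189 were higher (1.01%) and 238 lower (1.27%) in the 6 varicocele libraries. The members are the upper end of that list. Its share lay between those of VC (2.2%) and VC+MOP (3.68%) when each was set against the other 6 libraries. The length of the list is therefore not read as an effect of the varicocele, and the share due to chance was not computed. In limma, 3 of all transcripts passed an adjusted p below 0.05 for VC against control and 7 for VC+MOP against control. The gaps of the members ran from 1.12 on the log2 scale down to 0.0862 with a median of 0.138, and 8 of them exceeded 0.5. The boundary was gradual: ranks 96 to 100 had gaps between 0.0862 and 0.0898, and the next 5 ranks, just outside, between 0.0841 and 0.0858.

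**Figure D1:**
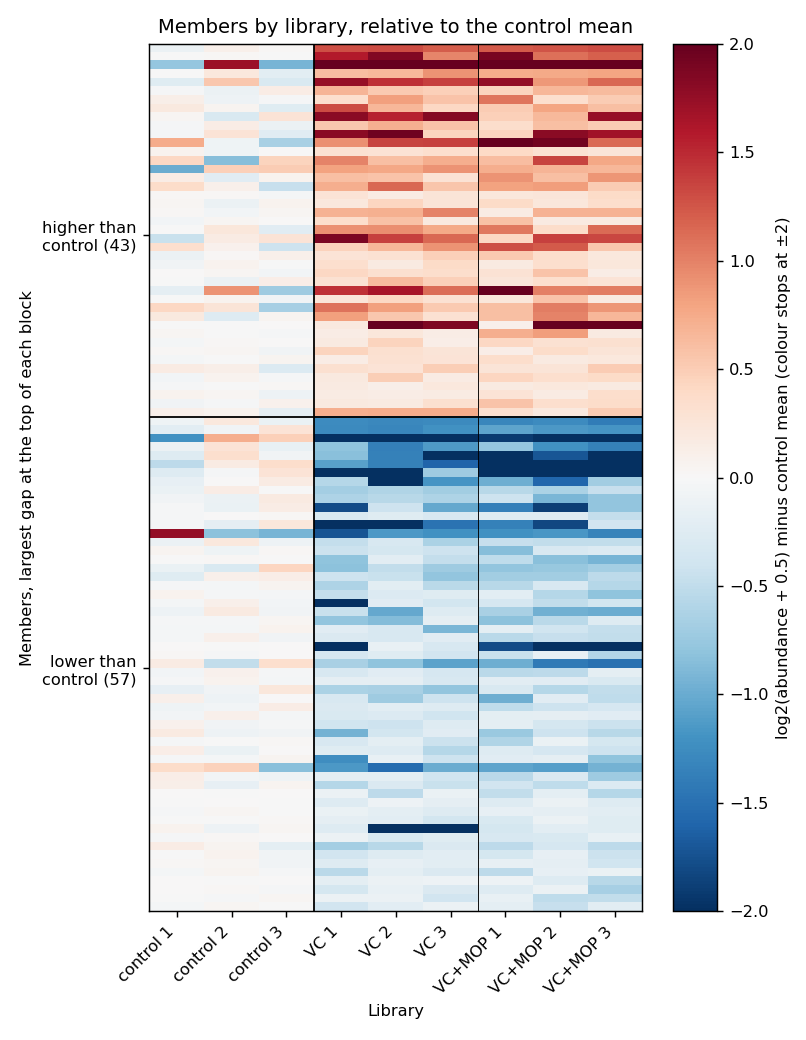
Heat map of the 100 members (rows, 43 higher and 57 lower than control, largest gap first) in the 9 libraries (columns); colour is log2(abundance + 0.5) minus the mean of the 3 control libraries, and stops at ±2. The 6 varicocele libraries have the colour of the block throughout, by the choice of the members, and the strongest colours lie among the first rows and in a few rows where some libraries depart from others of their group.

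Among the members that were higher than control, ENSRNOT00000061032 had the largest gap of all 100 with the pseudocount of 0.5, at 1.12. Its abundance was 1.17, 1.44 and 1.34 in the control libraries, 3.95, 3.98 and 3.72 in VC, and 3.77, 3.85 and 3.98 in VC+MOP. All 6 varicocele libraries lay close together, and the group means of VC (3.88 ± 0.145) and VC+MOP (3.87 ± 0.104) differed by less than the spread within either (SD, n = 3 each). ENSRNOT00000088331, at rank 3, was near 0 in control, listed at 0, 0.0108 and 0. It stood at 1.01, 1.31 and 0.495 in VC and at 1.38, 0.578 and 0.65 in VC+MOP. This member was listed at 0.495 or more in every varicocele library, and its level varied more than 2-fold among them with no separation of treated from untreated. Its gap of 0.963 depended on the pseudocount: it was 2.42 with 0.1, above the 1.31 of ENSRNOT00000061032, and 0.565 with 1, below the 0.949 of that member.

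The next higher members show the range of patterns. Rank 10 reached 15.2, 13.4 and 14.8 in VC and 20.4, 18.8 and 13.2 in VC+MOP. Its control libraries were at 1.34, 9.78 and 1.14, so control 2 lay much nearer to the varicocele libraries than the other two. Rank 12 was most even in VC+MOP, with 0.679, 0.881 and 0.529 in control, 1.31, 1.37 and 1.72 in VC, and 1.49, 1.498 and 1.56 in VC+MOP. Rank 14 went from 0.282, 0.846 and 0.253 in control to 2.6, 2.04 and 1.89 in VC and to 2.62, 1.185 and 1.54 in VC+MOP. Here the lowest treated library lay nearest to control without reaching it.

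Among the members that were lower than control, ENSRNOT00000038780 (rank 2) had the largest gap with the pseudocount of 0.5, at 1.11. Control libraries listed it at 7.53, 9.37 and 7.22, VC libraries at 3.06, 2.98 and 3.004, and VC+MOP libraries at 2.92, 3.05 and 2.71. Its varicocele values spanned a narrow band well below the lowest control. ENSRNOT00000020823 (rank 4) had the same pattern at a lower level, with 0.89, 1.03 and 1.43 in control, 0.162, 0.151 and 0.19 in VC, and 0.271, 0.225 and 0.208 in VC+MOP. All 3 treated libraries of this member lay above all 3 VC libraries, slightly nearer to control. Its gap of 0.851 became 1.42 with a pseudocount of 0.1, where that of ENSRNOT00000038780 was 1.21, and 0.573 with 1, where the latter was 1.02.

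Some other lower members were listed at or near 0 in part of the varicocele libraries. Rank 5 was listed at 1.515, 7.17 and 5.98 in control, at 0, 0 and 0.4 in VC, and at 0.734, 0 and 0.0425 in VC+MOP. With 0.5 added to both means, its control mean was 7.74 times that of the 6 varicocele libraries, the largest ratio among the lower members, although control 1 stood well below the other controls. Rank 8 stepped down through the groups, with 1.07, 2.04 and 2.37 in control, 0.556, 0.386 and 0.245 in VC, and 0.0107, 0.0132 and 0.021 in VC+MOP. Rank 6 was the more abundant kind, at 11.03, 14.8 and 10.8 in control, 6.67, 4.37 and 5.25 in VC, and 6.86, 4.91 and 4.398 in VC+MOP. Its group means in VC (5.43 ± 1.16) and VC+MOP (5.39 ± 1.3) again differed by less than their spread (SD, n = 3 each).

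**Figure D2:**
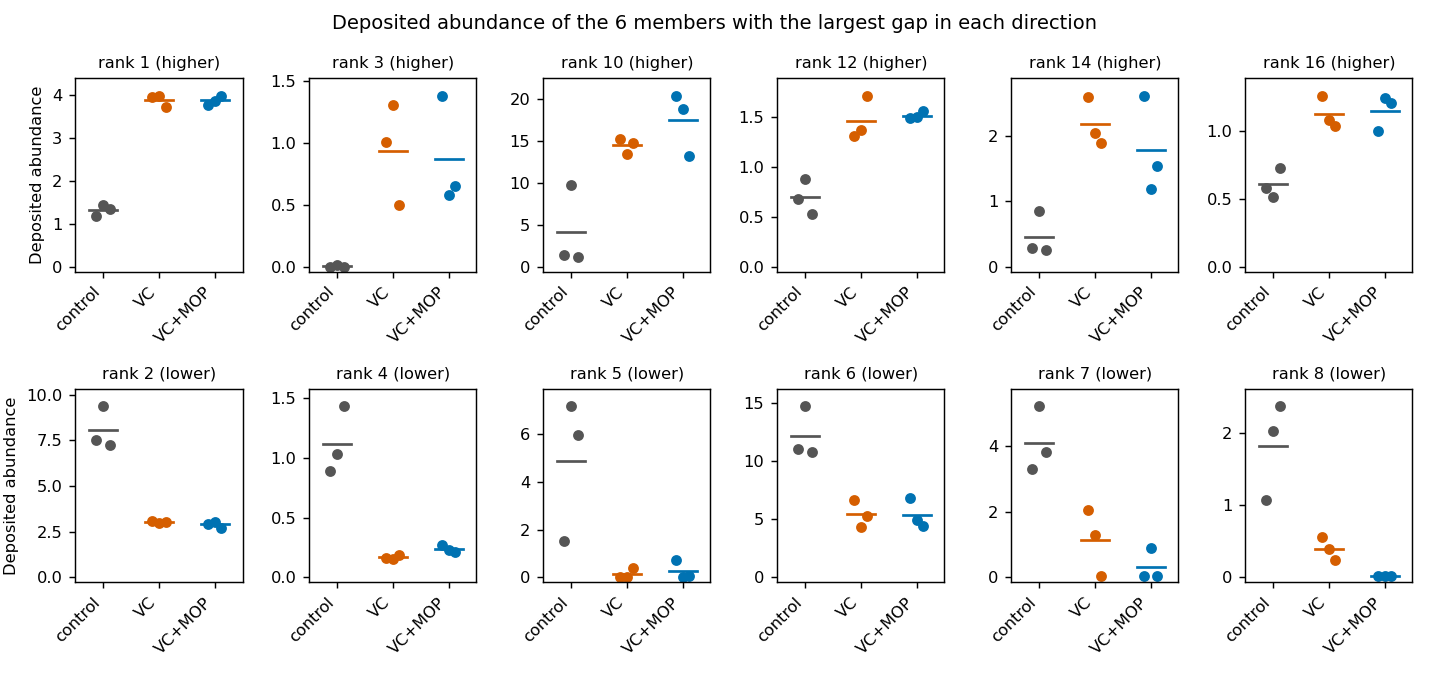
Deposited abundance (vertical axis, linear, its scale set for each panel) of the 6 members with the largest gap in each direction; points are libraries, bars are group means, n = 3 per group. The VC and VC+MOP points lie on the same side of control in every panel, by the choice of the members, and they overlap each other in all panels except those of rank 4 and rank 8.

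The members were mostly rare transcripts that moved by less than 2-fold. Their median abundance over the 9 libraries was 2.28, against 6.03 over all transcripts tested, and it ran from 0.502 to 34.1. A mean between 1 and 5 was found for 51 of 100 members (33.3% of all tested), between 0.5 and 1 for 23 (12.8%), between 5 and 20 for 22 (28.6%), and 20 or more for 4 (25.3%). Ratios of group means, with 0.5 added to each, ran from 1.13 to 6.09 with a median of 1.53 among the 43 higher members, of which 10 reached 2-fold. Among the 57 lower members the control mean was between 1.14 and 7.74 times that of the others, with a median of 1.37, and 14 reached 2-fold.

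The 4 most abundant members had small shifts. Rank 61, the most abundant, was at 28.4, 31.2 and 29.8 in control, 37.5, 33.9 and 39.1 in VC and 33.9, 37.8 and 35.1 in VC+MOP. Rank 35 had a mean of 21.1 in control, 26.2 in VC and 26.4 in VC+MOP, and its ratio of 1.24 was close to the 1.21 of rank 61. Rank 91 was the steadiest in control, at 30.1, 29.8 and 30.06, and stood at 26.1, 27.7 and 27.96 in VC and 27.8, 25.1 and 20.2 in VC+MOP. Its control mean exceeded that of the other 6 libraries by a factor of 1.16. Rank 95 was at 34.45, 34.98 and 33.9 in control, 26.8, 30.9 and 28.2 in VC and 28.6, 31.8 and 21.5 in VC+MOP, a factor of 1.23. In both, VC+MOP 3 was the lowest of the 9 libraries.

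Few members were near 0 on one side. In 2 of the 100 members every library of the lower side was listed below 0.05 (rank 3 and rank 80), against 33 of all 18745 transcripts (0.176%) counted by the direction of their own means, and 0 members were at 0 in the whole lower side. Rank 80 had the highest ratio of any higher member, 6.09, but a very uneven one. Control libraries were at 0.000677, 0 and 0.00144, VC at 0.0729, 3.25 and 1.33, and VC+MOP at 0.0382, 3.27 and 7.33. VC 1 and VC+MOP 1 were nearly as low as the controls, and its gap of 0.102 lay between control 3 and VC+MOP 1. At least 1 library was listed at 0 in 5 members, or 5% against 2.91% of all tested.

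In 21 members the libraries of at least 1 group differed by more than 2-fold after adding 0.5 (14% of all tested). This occurred in control for 9 members, in VC for 11 and in VC+MOP for 8. Rank 31 took 2 levels within both varicocele groups. It stood at 10.3, 11.3 and 3.71 in VC and at 3.695, 10.3 and 9.41 in VC+MOP, while control libraries were at 2.49, 3.23 and 2.13. VC 3 and VC+MOP 1 lay just above control and the other 4 libraries far above it.

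In rank 34, VC 1 lay far below every other library. Its VC libraries were at 1.13, 5.83 and 5.27, beside 5.35, 4.785 and 5.215 in VC+MOP and 6.68, 7.47 and 6.59 in control. Rank 21 was spread on the control side instead, at 12.4, 1.66 and 1.496, above VC libraries at 0.658, 1.23 and 1.15 and VC+MOP libraries at 1.15, 1.21 and 1.02. Control 2 and control 3 lay just above the varicocele libraries and control 1 far above them. The median SD within groups was 0.175 on the log2 scale for members and 0.146 for all transcripts tested.

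The gap of a member rests on 1 control library and 1 of the other 6, and no library was responsible for most of them. Control 2 set the control edge in 39 members, control 1 in 34 and control 3 in 27. Among the varicocele libraries the edge was set by VC+MOP 1 in 20 members, VC 1 in 19, VC 2 in 18, VC 3 in 16, VC+MOP 3 in 14 and VC+MOP 2 in 13. Even so, the membership depended on the libraries at hand. With 1 control library left out and the rule applied again, 30, 35 and 23 of the 100 members were kept without control 1, 2 and 3. Leaving out 1 varicocele library kept between 55 and 67. A gap cannot shrink when a library is left out, so the members lost their place to other transcripts with larger gaps. Without control 1, 2 and 3, 1381, 1098 and 1449 transcripts did not overlap, against 427 with all libraries.

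Summed over the 43 higher members, abundance was 169.3, 178.6 and 157.8 in the control libraries, 251.9, 261.3 and 243 in VC, and 257.9, 260 and 249.4 in VC+MOP. The 57 lower members summed to 297.5, 299.7 and 295.4 in control, 192.7, 205.8 and 201.1 in VC, and 196.4, 198.2 and 178.2 in VC+MOP. The sums of VC and VC+MOP overlapped in both directions. Together the members made up between 0.089% and 0.099% of the listed abundance of a library.

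Whether the treated testes differed from the untreated varicocele testes in these transcripts was tested with limma across all 18745 transcripts. This contrast is not the one that chose the members, but the rule uses the lowest or highest of the 6 libraries. For a given shift it favours a small spread among these 6, which can lower the count of members called. The members did not have the smaller spread within groups, with a median SD of 0.175 on the log2 scale against 0.146 for all transcripts. At a Benjamini-Hochberg adjusted p below 0.05, 0 of the 100 members differed between VC+MOP and VC, and 3 of all transcripts did (0.016%). At an unadjusted p below 0.05, 7 members differed, against 1167 of all transcripts (6.23%). The smallest adjusted p among members in limma was 0.79. The median absolute difference of VC+MOP from VC was 0.0969 on the log2 scale for members and 0.0946 for all transcripts.

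The direction of the treated group relative to the untreated one was next read along each member's own shift. The difference of VC+MOP minus VC was given a positive sign where VC+MOP lay farther from control. Over the members its median was 0.02 on the log2 scale, with the middle 50% of members between -0.076 and 0.12. Over all transcripts tested the median was 0.017, with the sign taken from the 6 libraries against control in the same way. VC+MOP lay farther from control than VC in 59 of 100 members and in 55.1% of all transcripts. By direction, this held for 23 of 43 higher members and 36 of 57 lower members.

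**Figure D3:**
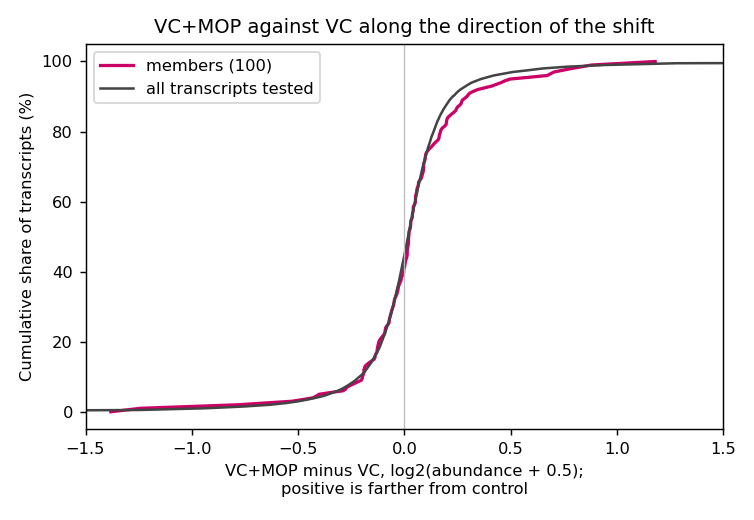
Cumulative share of transcripts (vertical axis, %) by the difference of VC+MOP minus VC on the log2(abundance + 0.5) scale (horizontal axis), signed so that positive values lie farther from control; the coloured line is the 100 members and the dark line all transcripts tested. The curves run close to each other through 0, with medians of 0.02 and 0.017, and lie farther apart toward the ends. At the 0.95 quantile the members are at 0.497 and all transcripts at 0.36, and at the 0.05 quantile at -0.40 and -0.357.

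As a ratio, the shift of VC+MOP from control was a median of 1.06 times that of VC on the log2 scale, and the middle 50% of members lay between 0.884 and 1.32. The ratio was between 0.5 and 1.5 in 79 members, above 1.5 in 17 and below 0.5 in 4. It cannot be negative, because the rule puts both groups on the same side of control. Both shifts also use the same control libraries, so a ratio near 1 is partly fixed by the rule. The ratio was not computed over all transcripts, and nothing about the treatment is read from it. VC and VC+MOP did not overlap in 11 of 100 members, 5 with VC+MOP farther from control and 6 with VC+MOP nearer. Over all transcripts 11.4% did not overlap, 7.02% with VC+MOP farther and 4.4% nearer.

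**Figure D4:**
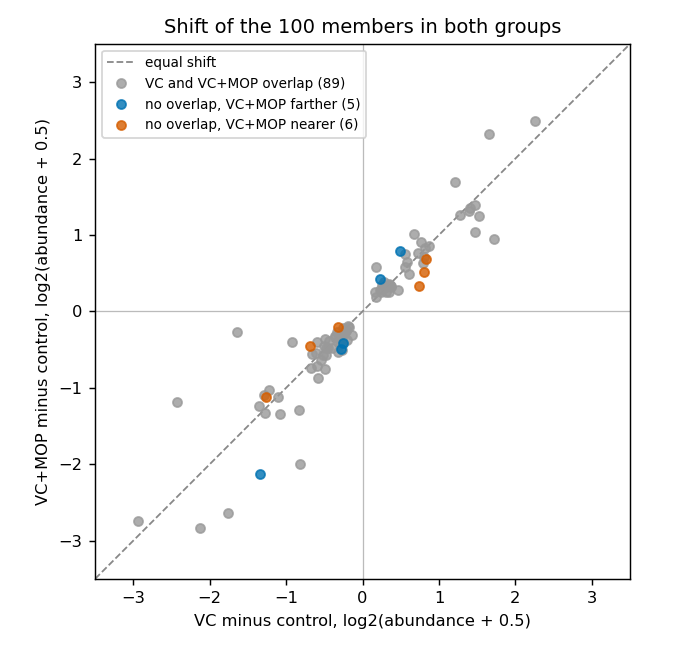
Shift from control of each of the 100 members in VC (horizontal axis) and VC+MOP (vertical axis), both on the log2(abundance + 0.5) scale and both measured from the same control libraries; the dashed line marks an equal shift. Grey points are the 89 members whose VC and VC+MOP libraries overlap, and coloured points the 11 where they do not, 5 with VC+MOP farther from control and 6 nearer.

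The members with the smallest p for VC+MOP against VC are given as values, since none passed the adjusted threshold. ENSRNOT00000005618, at rank 99, was at 3.68, 3.59 and 2.94 in control, 5.92, 5.998 and 6.04 in VC and 4.35, 3.94 and 5.01 in VC+MOP. Its treated libraries lay between the other groups without overlapping either, at a log2 difference from VC of -0.40 ± 0.11 (SE, limma adjusted p = 0.79). ENSRNOT00000055985, the rank 8 member given above, was lower in VC+MOP than in VC by a log2 difference of -0.78 ± 0.24 (SE, limma adjusted p = 0.795), which took it farther from control. With a pseudocount of 0.1 this difference was -2.06, and with 1 it was -0.45 (limma adjusted p = 0.594 and 0.795).

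The 2 members with the smallest p among those higher in VC+MOP than in VC were both uneven within a group. ENSRNOT00000081937, at rank 81, was at 3.76, 3.24 and 3.63 in control, 2.89, 0.387 and 0.211 in VC and 2.67, 2.99 and 2.92 in VC+MOP (log2 difference 1.38 ± 0.50, SE, limma adjusted p = 0.795). VC 1 shared the level of the treated libraries and the other VC libraries were far lower. ENSRNOT00000027666, at rank 82, was at 6.62, 6.36 and 6.29 in control, 7.13, 7.56 and 7.19 in VC and 10.9, 11.8 and 7.36 in VC+MOP (log2 difference 0.41 ± 0.15, SE, limma adjusted p = 0.795). VC+MOP 3 stood with the VC libraries.

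Whether VC 1 was kept decided the only member calls between VC+MOP and VC. Without it, limma called 2 members, rank 81 (log2 difference 2.08, limma adjusted p = 0.00359) and rank 43 (log2 difference -1.77, limma adjusted p = 0.00695), and leaving out any other library gave 0. Over all 18745 transcripts tested, limma called 8 without VC 1, against 3 with every library kept. Rank 43 was at 4.84, 4.81 and 4.83 in control, 0.832, 4.303 and 3.785 in VC and 1.05, 0.755 and 0.715 in VC+MOP. In both members VC 1 stood with the treated libraries and apart from VC 2 and VC 3.

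Each varicocele group can be set apart by the same rule, which uses the same 9 libraries. VC did not overlap with the other 6 libraries in 413 transcripts (2.2%) and VC+MOP in 690 (3.68%), beside the 427 of control. The largest gap was 2.995 for VC and 3.57 for VC+MOP, against 1.12 for control, and gaps above 1 numbered 3 and 4 against 2. At rank 10 the gaps were similar, at 0.503 for VC, 0.468 for VC+MOP and 0.413 for control, and at rank 100 they were 0.0925, 0.0878 and 0.0862. Of the 100 largest gaps, 1% of the VC list and 2% of the VC+MOP list were also among the control list. No test of a difference between these lists was run.

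**Figure D5:**
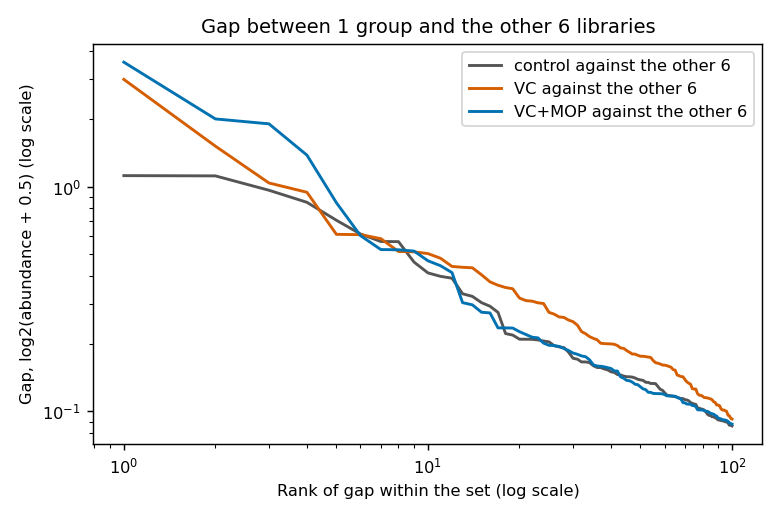
Gap on the log2(abundance + 0.5) scale (vertical axis, log scale) by rank (horizontal axis, log scale) for the 100 transcripts with the largest gap when control, VC or VC+MOP is set against the other 6 libraries. The first ranks reach 3.57 for VC+MOP and 2.995 for VC against 1.12 for control, and the lines end between 0.0862 and 0.0925 at rank 100.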

How the data were processed

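The 9 libraries were grouped by their titles, 3 each, and table columns were matched to them by the labels' descriptions. The deposited values are a linear abundance signal per transcript, without a unit per the file headers, and could be FPKM or TPM. Among tools, the submitters' processing notes list StringTie 1.3.1c, HISAT2 2.0.5 and cutadapt. They also list hg19, a human build, while the identifiers are rat. No source used here gives the rat annotation or how reads were aligned, so its effect on these values is unknown.

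The rule of the opening was applied to log2(value + 0.5) without further scaling. limma 3.58.1 in R 4.3.3 fitted 1 model to all 9 libraries over 18745 transcripts, with group as its term, 6 residual degrees of freedom and a variance trend. Tests were two-sided with Benjamini-Hochberg adjustment. Fold changes on this scale understate those of rare transcripts. The fit and the rule were run on simulated data with normal noise and planted shifts, as a check of the calculation. That check is not read as the power to find shifts of the size seen in members. Members and tests were chosen with earlier results of these data known. The planned gene lists and cell type markers could not be used, since no identifier was paired with a gene, nor could sequences be matched. Identifiers were printed for the 2 largest gaps, and the 2 smallest p for VC+MOP against VC, in each direction; members described by rank alone were picked after their values were seen. Same-numbered libraries of different groups had deviations from their group means correlated between -0.066 and 0.039 over 9 pairs. Differently numbered ones were correlated between -0.045 and 0.046 over 18 pairs. The numbers are those of the titles and the labels name no shared animal or day, so numbers were not treated as pairs. Figures were drawn with matplotlib 3.10.9.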

Additional observations from a re-analysis of the deposited data

How the results depend on the processing

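Pseudocounts of 0.1 or 1, 3 other limits on low values and 2 rescalings kept between 77 and 96 of the 100 members. At a mean of 1 or more 77 were kept, and no more had a value there. Of these, 4 had VC and VC+MOP apart (11 of 100 before), and the rest of the 11 had a mean below 1. The share over all transcripts at that limit was not computed, so the 4 have no background beside them. Left-out libraries gave from 23 to 67 members kept and 582 to 1449 transcripts not overlapping between control and the others. A side of fewer libraries is easier to separate. They gave 11 to 25 members with VC and VC+MOP apart. The low end came from leaving out a control library, which leaves VC and VC+MOP unchanged. Leaving out a VC or VC+MOP library makes these groups easier to separate, and the share over all transcripts was not computed there. In VC+MOP against VC, limma called 0 to 2 members, beside 3 to 13 of all transcripts. Other pseudocounts moved the gap by more than the spread in 3 of the 4 members named for it. The median signed difference stayed between 0.00997 and 0.0341. The count of members with VC+MOP farther from control stayed between 55 and 59, except at a mean of 1 or more, where it was 48 of 77. Over all transcripts, left-out libraries gave 3 to 13 calls for VC+MOP against VC (3 with all), 2 to 10 for VC against control (3) and 6 to 16 for VC+MOP against control (7); the cause was not tested. Fitting the 2 compared groups alone gave 5 and 7 calls for the first 2 comparisons, and an adjusted p below 0.10 gave 5 for the first. VC+MOP against control gave 4 with a pseudocount of 1, a mean of 1 or more, quantile scaling or robust variances. With the replicate number as a block, VC against control gave 1 call, VC+MOP against control 4, VC+MOP against VC 3 and its members 0. An unadjusted p below 0.05, added after seeing the data, gave 7 members and 1167 transcripts for VC+MOP against VC. Depth is unknown, so no limit from counting can be set for the rare members.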

Other observations

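Some members kept a nearly constant ratio to each other over all 9 libraries. Members of the same direction share a step from control by the rule, so part of this is built in. Pairs of other transcripts were not compared. Among the 4465 pairs of the 95 members with no value of 0, ranks 83 and 93 were the closest, and rank 93 was between 1.05 and 1.11 times rank 83 in every library. Rank 83 was at 3.91, 4.11 and 4.04 in control, 4.63, 5.65 and 4.43 in VC and 5.54, 5.07 and 5.14 in VC+MOP. Rank 93 was at 4.12, 4.52 and 4.23, at 4.98, 6.23 and 4.85, and at 5.97, 5.53 and 5.71. Both peaked in VC 2. The next closest pair was ranks 48 and 78, whose ratio ran from 1.755 to 1.94. These pairs were picked after their values were seen and among many, and whether their members share a gene or reads was not tested, since no identifier was paired with a gene.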
